A study of Mus musculus with 6 samples.

Results

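The myosin light chains Myl1, Myl2, Myl3, Myl4, Myl6b and Mylpf and the light chain kinases Mylk2 and Mylk4 were examined in chromatin of mouse skeletal muscle nuclei. The members were all rows with 1 of these 8 symbols among 49366 promoter windows, together with the 5 of 36097 accessible peaks in a stretch of 70 kb of chromosome 1 (GRCm38) that holds Myl1. A window took in the bases within 1 kb of any start annotated for a gene. The genes and the stretch were chosen by measured differences between Yap-shRNA and LacZ-shRNA, the fold changes of windows and peaks, so their values in that comparison are a description. Calls from the fit over all features are counted for them beside the share called among all features, and no p-value of a member is used as support.

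Open chromatin was mapped by ATAC-seq, which uses a transposase to place sequencing adapters where DNA is accessible. All samples came from male C57BL/6J mice aged 8 weeks, which received AAV6 vectors in contralateral gastrocnemius and tibialis anterior (TA) muscles. One vector expressed a short hairpin RNA against Yap (AAV6:Yap-shRNA, n = 3), a transcriptional coactivator of the Hippo pathway, and the control expressed one against the bacterial gene lacZ (AAV6:LacZ-shRNA, n = 3). Muscles were taken 28 days later, nuclei were sorted for the perinuclear protein Pcm1, and each replicate pooled 4 gastrocnemius and 4 TA muscles. Vectors were given to whole muscles and the replicates are pools, so single fibres and single animals cannot be told apart. In such bulk samples, fewer nuclei of a type and less open chromatin per nucleus cannot be told apart either.

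Each myosin head of the sarcomere carries an essential and a regulatory light chain, which stiffen the lever arm of the motor and tune its activity. Fast fibres use the products of Myl1 and Mylpf, slow fibres and the ventricle use those of Myl3 and Myl2, and Myl4 belongs to the atrium and to embryonic muscle. Myl1 makes a long essential chain (MLC1f) from its first promoter and a short one (MLC3f) from a promoter inside the gene, and a muscle enhancer has long been known at the 3′ end of the gene. Kinases activated by calcium and calmodulin phosphorylate the regulatory chain and strengthen contraction.

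The sequences below show the promoters of the 2 fast chains, 1 slow chain and 1 kinase, and the middle of the Myl1 region peak with the largest difference between groups. All are from GRCm38, are written 5′ to 3′ in the direction of transcription, and hold 300 bases. Capitals mark exact matches on either strand to the E-box CANNTG bound by myogenic factors (CAGCTG is a subset of it), to CATTCC bound by TEAD factors, and to the MEF2 and CArG motifs bound by MEF2 and by serum response factor. Promoters from RefSeq run from 250 bases before to 50 bases after the start. RefSeq promoters were given for 7 of the 8 members.
Myl1 downstream peak, centre (chr1:66923115-66923414, minus strand): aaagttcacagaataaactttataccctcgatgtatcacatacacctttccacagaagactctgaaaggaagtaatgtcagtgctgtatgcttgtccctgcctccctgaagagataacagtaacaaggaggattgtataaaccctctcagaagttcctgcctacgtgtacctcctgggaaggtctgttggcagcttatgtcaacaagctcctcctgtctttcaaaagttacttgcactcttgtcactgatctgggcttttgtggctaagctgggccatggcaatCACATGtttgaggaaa
Myl1 short isoform, before its start (chr1:66935355-66935654, minus strand): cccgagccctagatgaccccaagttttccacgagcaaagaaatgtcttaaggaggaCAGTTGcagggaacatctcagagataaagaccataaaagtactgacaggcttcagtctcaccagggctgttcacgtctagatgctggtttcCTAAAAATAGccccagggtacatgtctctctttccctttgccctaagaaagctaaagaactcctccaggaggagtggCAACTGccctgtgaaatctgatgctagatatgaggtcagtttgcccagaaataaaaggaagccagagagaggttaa
Myl1 long isoform, RefSeq promoter (chr1:66945007-66945306, minus strand): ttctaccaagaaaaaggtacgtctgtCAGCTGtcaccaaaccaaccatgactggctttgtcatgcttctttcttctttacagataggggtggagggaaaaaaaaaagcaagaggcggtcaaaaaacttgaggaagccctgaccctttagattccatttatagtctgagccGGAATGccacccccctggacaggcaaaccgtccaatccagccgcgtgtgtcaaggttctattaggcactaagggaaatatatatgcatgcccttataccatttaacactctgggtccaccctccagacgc
Mylpf, RefSeq promoter (chr7:127211358-127211657, plus strand): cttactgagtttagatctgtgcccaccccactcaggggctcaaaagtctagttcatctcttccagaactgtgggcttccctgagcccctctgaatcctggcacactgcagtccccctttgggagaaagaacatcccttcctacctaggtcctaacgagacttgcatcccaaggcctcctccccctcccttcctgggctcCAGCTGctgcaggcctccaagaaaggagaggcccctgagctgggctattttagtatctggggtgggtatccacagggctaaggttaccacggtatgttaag
Myl3, RefSeq promoter (chr9:110763428-110763727, plus strand): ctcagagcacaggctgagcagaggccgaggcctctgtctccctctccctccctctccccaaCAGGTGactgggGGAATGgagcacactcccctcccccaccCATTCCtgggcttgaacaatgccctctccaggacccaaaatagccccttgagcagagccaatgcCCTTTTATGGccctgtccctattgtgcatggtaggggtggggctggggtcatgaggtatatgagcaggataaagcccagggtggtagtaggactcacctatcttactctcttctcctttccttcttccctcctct
Mylk4, RefSeq promoter (chr13:32783915-32784214, minus strand): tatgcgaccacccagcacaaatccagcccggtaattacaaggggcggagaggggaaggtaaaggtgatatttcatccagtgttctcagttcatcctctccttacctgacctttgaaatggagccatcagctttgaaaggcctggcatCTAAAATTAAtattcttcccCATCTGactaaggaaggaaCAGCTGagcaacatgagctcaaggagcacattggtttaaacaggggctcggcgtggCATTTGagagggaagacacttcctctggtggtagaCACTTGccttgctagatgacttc

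The middle of the downstream peak held 1 E-box match and 0 matches to the TEAD, MEF2 and CArG motifs. The bases before the short isoform's start held 1 MEF2 match and 2 E-boxes, and the long isoform's promoter held 1 CAGCTG and 1 TEAD match. The Mylk4 promoter held 1 MEF2 match and 4 E-boxes, 1 of them CAGCTG, while the Mylpf promoter held 1 CAGCTG only. The Myl3 promoter held 1 CArG match, 2 TEAD matches and 1 E-box. Over all 32851 RefSeq promoters, an E-box was present in 72.3%, CAGCTG in 16.3%, TEAD in 14.7%, MEF2 in 3.19% and CArG in 1.63%. In the central 300 bases of 35982 peaks the shares were 67.4%, 17.2%, 10.1%, 3.95% and 0.806% in the same order. A match describes the letters in these stretches and does not show that a factor was bound.

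Library depth and sorting were examined before the members. Peak counts totalled from 2588520 to 6871176 per sample and window counts from 3326803 to 10319467, with LacZ-shRNA replicates 1 and 2 the shallowest in both tables. The 8 myonuclear markers (such as Ckm, Acta1 and Tnnt3) all had a level per kb above the median of all windows, and their median was higher than 99.3% of windows. Of the 5 fibroblast markers 1 was above that median, as were 3 of 4 for each of endothelial cells, smooth muscle, leukocytes, satellite cells and cardiomyocytes, and every listed marker had a window in the table. The design text of the series names cardiomyocytes, whereas the labels of every sample name skeletal muscle. The summed marker level of each list overlapped between groups in range, and for myonuclei it ran from 1009 to 1435 CPM in LacZ-shRNA and from 1103 to 1275 CPM in Yap-shRNA. By the quasi-likelihood test of edgeR, 11 of all windows and 223 of all peaks had an adjusted p under 0.05, the threshold used throughout. The called peaks comprised 17 higher and 206 lower in Yap-shRNA, or 124 and 105 when scaled by library size alone, so directions are relative to TMM. An shRNA acts on RNA, so accessibility is no check of the knockdown.

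The members spanned a wide range of accessibility, from the middle of all windows to the top. Levels are TMM-normalised CPM (counts scaled by library size and between libraries) per kb of window, as means ± SD over all 6 samples, against a median of 4.45 for all windows. The highest member was Mylk2, the kinase of fast skeletal muscle, with 43.1 ± 6.74 CPM per kb, above 99.9% of windows. The regulatory chain gene Mylpf had 13.4 ± 2.16, the kinase gene Mylk4 12.7 ± 1.68 and the fast essential chain gene Myl1 10.6 ± 2.29, each above more than 90% of windows. The slow chain genes followed, Myl2 with 7.86 ± 0.710 and Myl3 with 7.68 ± 0.537. The lowest were the atrial chain gene Myl4 with 5.001 ± 0.425 and Myl6b, a chain of slow and non-sarcomeric myosin, with 4.53 ± 0.658 CPM per kb. The windows of Myl4 and Myl6b share bases with those of other genes. Their counts divided by the kb not shared gave 6.02 for Myl4 and 8.67 for Myl6b. The low place of Myl6b therefore depends on how reads in shared stretches were counted.

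**Figure D1:**
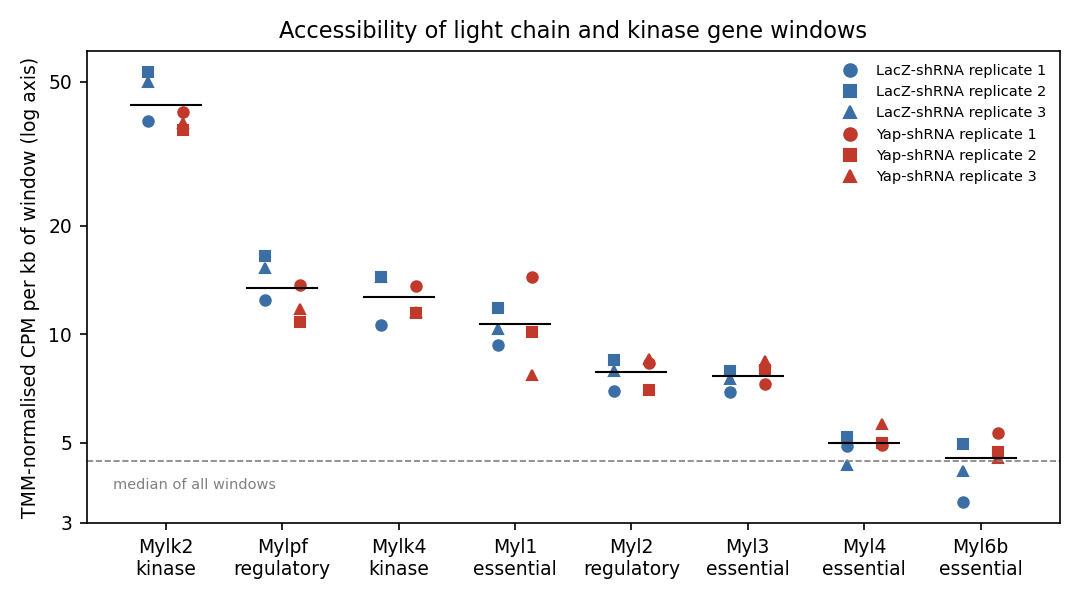
Level of each member window in TMM-normalised CPM per kb of window (log axis). Points are single samples, coloured by group and shaped by replicate, black bars are means over all 6 samples, and the dashed line is the median of all windows. Mylk2 (36.8 to 53.2 CPM per kb) lies above every other member in every sample, and the samples of the 2 groups overlap for all 8 members.

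Neighbours in this order were compared within samples by an exact two-sided sign-flip permutation test, whose smallest p with 6 samples is 0.03125. The test takes the 6 samples as independent. The 2 groups may share animals through contralateral muscles, and its p-values would then be too small. Mylk2 lay above Mylpf by 1.68 on the log2 scale (SD 0.062) and Myl3 above Myl4 by 0.62 (SD 0.10), each in 6 of 6 samples (exact p = 0.03125, 0.109 after Benjamini-Hochberg adjustment over the 7 pairs). The other 5 pairs held their direction in 5 of 6 samples each, and their differences ranged from 0.033 for Myl2 over Myl3 (exact p = 0.469) to 0.41 for Myl1 over Myl2 (exact p = 0.0625). After adjustment 0 of 7 pairs passed 0.05, and 2 of 7 had an unadjusted p under 0.05. Pairs at the smallest p cannot pass this adjustment when they are only 2 of 7, however large their difference. The count of 0 therefore does not show that neighbours were alike. The order itself was taken from the same levels. Places in the order depended on the length used, since the width of the windows ran from 2.00 kb for Mylk2 to 11.6 kb for Myl4. With the count of the whole window divided by the kb not shared with another gene, Mylk2, Mylpf, Mylk4 and Myl1 stayed the top 4 in that order. Myl6b then moved above Myl2 and Myl4. Per window Myl3 and Myl4 came before Myl1. Per kb of the peaks that overlap the windows, which 5 members have, the order was Mylpf, Myl4, Myl6b, Mylk4 and Myl1. The windows of Mylpf, Myl4 and Myl6b overlap those of other genes, so their peaks cannot be assigned to the members alone. The Mylpf peak (chr7:127207134-127209886) ends before the RefSeq promoter of Mylpf printed above.

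The fast and the slow light chain genes were compared as pairs. The mean log2 level per kb of Myl1 and Mylpf exceeded that of Myl2 and Myl3 by 0.64, 0.77 and 0.70 in LacZ-shRNA replicates 1, 2 and 3 and by 0.85, 0.49 and 0.17 in Yap-shRNA replicates 1, 2 and 3. The difference was positive in 6 of 6 samples and smallest in Yap-shRNA replicate 3, where Myl1 was lowest and Myl3 highest. In that sample Myl1 (7.73 CPM per kb) lay below both Myl2 (8.52) and Myl3 (8.44), so the positive difference there came from Mylpf. Its mean was 0.60 (SD 0.25, exact two-sided sign-flip permutation test p = 0.03125, the smallest p that 6 samples allow). The test asks whether the offset between these windows recurs over the samples. It too takes the 6 samples as independent, and its p is too small if the 2 groups share animals. With 2 genes on each side, it does not speak for fast and slow chains as classes. The summed level of the 5 slow fibre markers was also highest in Yap-shRNA replicate 3 (229 CPM, against 175 to 219 CPM in the other samples), and its part in the difference was not tested. Of the 6.30 kb window of Mylpf 3.95 kb are not shared with Sept1 or Tbc1d10b, and the window of Myl3 shares part with Pth1r. Reads in such shared stretches are counted uncertainly. With the count of the whole window divided by its unshared kb, the difference was 0.83. That scaling overstates a level if reads of shared stretches are in the count. If those reads were left out, the level per kb of the whole window is too low instead.

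The comparison of groups asked whether Yap knockdown altered accessibility at these genes. Among the member windows 0 of 8 passed the threshold, against 0.0223% of all windows in either direction and 0.00203% called higher, and the 3 Yap-shRNA samples lay apart from the 3 LacZ-shRNA samples in 0 of 8. DESeq2 also called 0, with no adjusted p for Myl6b. At an unadjusted p under 0.05 the edgeR count was 1 of 8, beside 4.9% of all windows. Over all windows, 5.31% had every Yap-shRNA sample above every LacZ-shRNA sample and 4.79% had every one below. Fold changes of the members are Yap-shRNA against LacZ-shRNA on the log2 scale with the standard error of the fit. They were positive for 5 members and negative for 3, with a median of 0.042, beside -0.014 for all windows.

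The 4 essential light chain genes had small positive fold changes. Myl1 held 48.7, 61.5 and 53.9 CPM in LacZ-shRNA and 75.1, 52.9 and 40.2 CPM in Yap-shRNA, so that the Yap-shRNA samples were both the highest and the lowest. Its log2 fold change was 0.048 (SE 0.16), and without Yap-shRNA replicate 1 it was -0.22. Myl3 held 57.5, 65.7 and 62.4 CPM in LacZ-shRNA and 60.5, 66.1 and 70.0 CPM in Yap-shRNA, with a log2 fold change of 0.086 (SE 0.13). For Myl4 the values were 56.6, 59.9 and 50.1 CPM against 57.1, 57.6 and 65.3 CPM, with a log2 fold change of 0.12 (SE 0.13). The Myl4 window shares part with that of Cdc27. The 2 highest Myl3 values and the highest Myl4 value were from Yap-shRNA samples, and the groups overlapped for both genes.

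Myl6b held 13.7, 19.9 and 16.7 CPM in LacZ-shRNA and 21.3, 18.9 and 18.2 CPM in Yap-shRNA, with a log2 fold change of 0.24 (SE 0.16). LacZ-shRNA replicate 2 lay inside the Yap-shRNA range and the other control samples below it. Its window overlaps those of Myl6 and A430046D13Rik and held 854 counts over all samples, although the 2 peaks that overlap it held 4566. The Myl6b value is therefore uncertain. The larger of these peaks in counts held 73.5 to 86.8 CPM in LacZ-shRNA and 73.8 to 82.0 CPM in Yap-shRNA, and its log2 fold change was -0.018 (SE 0.12). The other peak, which holds an annotated Myl6b start, had a log2 fold change of -0.079 (SE 0.12).

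The regulatory light chain genes Mylpf and Myl2 were read next. Mylpf held 78.5, 104 and 96.2 CPM in LacZ-shRNA and 86.5, 68.2 and 73.8 CPM in Yap-shRNA, with a log2 fold change of -0.28 (SE 0.14). The highest Yap-shRNA sample lay above LacZ-shRNA replicate 1 and below the other controls. The peak that overlaps the Mylpf window had a log2 fold change of -0.071 (SE 0.13). Myl2 held 34.6, 42.0 and 39.3 CPM in LacZ-shRNA and 41.2, 34.8 and 42.3 CPM in Yap-shRNA. The Myl2 groups covered almost the same range, and the log2 fold change was 0.036 (SE 0.14).

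The kinase genes Mylk2 and Mylk4 both had negative fold changes. Mylk2 held 78.2, 106 and 99.7 CPM in LacZ-shRNA and 82.4, 73.6 and 77.1 CPM in Yap-shRNA, a ratio of group means of 0.820 and a log2 fold change of -0.28 (SE 0.14). LacZ-shRNA replicate 1 lay within the Yap-shRNA range, and without that replicate the fold change was -0.40 (SE 0.10) and Mylk2 passed the threshold, while 157 windows did so in all. Mylk4, a kinase found in striated muscle, held 64.9, 88.4 and 88.5 CPM in LacZ-shRNA and 83.6, 70.5 and 70.6 CPM in Yap-shRNA, with a log2 fold change of -0.10 (SE 0.14). In Mylk2, Mylpf and Mylk4 alike, LacZ-shRNA replicate 1 was the lowest control and Yap-shRNA replicate 1 the highest knockdown sample. The summed level of the myonuclear markers was likewise lowest in LacZ-shRNA replicate 1 (1009 CPM, against 1435 and 1286 CPM) and highest among the knockdown samples in replicate 1 (1275 CPM, against 1103 and 1248 CPM), and its part in these values was not tested.

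**Figure D2:**
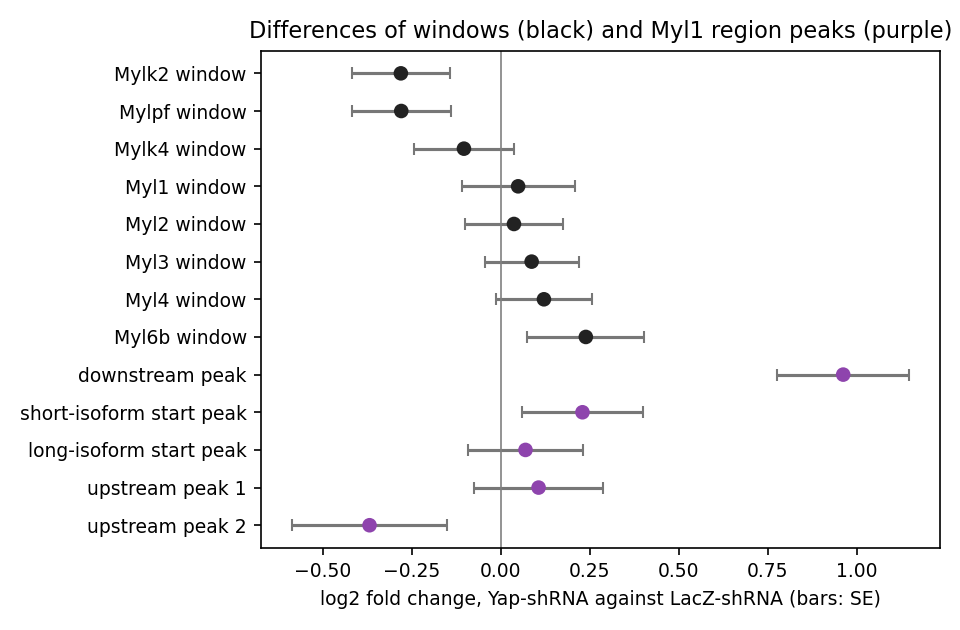
Log2 fold changes of Yap-shRNA against LacZ-shRNA for the 8 member windows (black) and the 5 peaks of the Myl1 region (purple), with bars of 1 SE. The windows lie between -0.28 and 0.24, and the downstream peak of Myl1 lies apart from all other features at 0.96.

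The peaks around Myl1 gave more detail than its window. The gene runs on the minus strand of chromosome 1 from 66945404 to 66924295 (ENSMUSG00000061816), and its 8 annotated starts lie in 2 clusters. The peak at the long isoform's start (chr1:66944724-66945771) held 22.7, 28.0 and 23.6 CPM in LacZ-shRNA and 32.5, 24.5 and 19.5 CPM in Yap-shRNA. The peak at the short isoform's start (chr1:66935025-66935852) held 27.4, 28.9 and 25.6 CPM in LacZ-shRNA and 44.2, 29.5 and 20.8 CPM in Yap-shRNA. At both starts Yap-shRNA replicate 1 was the highest and replicate 3 the lowest of all samples, so the groups overlapped. The log2 fold changes were 0.069 (SE 0.16) at the long and 0.23 (SE 0.17) at the short isoform's start, and they turned to -0.15 and -0.096 without Yap-shRNA replicate 1.

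Per kb of peak, the short isoform's start was the more accessible of the 2 in every sample. The ratio of short to long was 1.52, 1.30 and 1.38 in LacZ-shRNA and 1.72, 1.52 and 1.35 in Yap-shRNA, and the groups overlapped. The short isoform's start peak had a level per kb above 92.3% of all peaks, against 67.6% for the long isoform's.

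The downstream peak (chr1:66922861-66923667) was the 1 of 5 peaks of the region that passed the threshold, beside 0.618% of all peaks called in either direction and 0.0471% called higher. It covers 807 bp outside exons, starts 628 bp beyond the 3′ end of Myl1, and lies 11031 bp from the nearest annotated start. Whether it covers the enhancer known at that end of the gene was not tested. It held 10.4, 10.2 and 10.8 CPM in LacZ-shRNA and 22.3, 22.0 and 17.04 CPM in Yap-shRNA. Every Yap-shRNA sample was above every LacZ-shRNA sample, as in 6.55% of all peaks. The group means (± SD, n = 3) were 10.4 ± 0.284 CPM in LacZ-shRNA and 20.4 ± 2.95 CPM in Yap-shRNA, a ratio of 1.96, and the log2 fold change was 0.96 (SE 0.18). The region was proposed from this peak, so the difference is a description.

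The depth behind the downstream peak was modest. The LacZ-shRNA samples held 38, 24 and 73 reads there and the Yap-shRNA samples 155, 158 and 103. The exact Poisson 95% intervals, which cover counting error only, ran from 6.53 to 15.2 CPM for LacZ-shRNA replicate 2, the shallowest library, and from 13.9 to 20.7 CPM for Yap-shRNA replicate 3. These 2 intervals overlap, and the control values lie closer together than their own counting error. Reads of the downstream peak amounted to 20.8%, 17.9% and 21.9% of the reads in both start peaks in LacZ-shRNA and to 29.1%, 40.7% and 42.2% in Yap-shRNA. This share does not depend on the scaling between libraries, and its 3 Yap-shRNA values lay above the 3 control values (37.3% ± 7.19 against 20.2% ± 2.04, SD, n = 3 per group). It is built from the reads by which the region was chosen, so it is a description and no further support. How often such shares separate at other peaks was not examined. The share also moves with the start peaks. Yap-shRNA replicate 3 had the highest share, the lowest downstream CPM of the knockdown samples and the lowest start peaks of all samples.

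**Figure D3:**
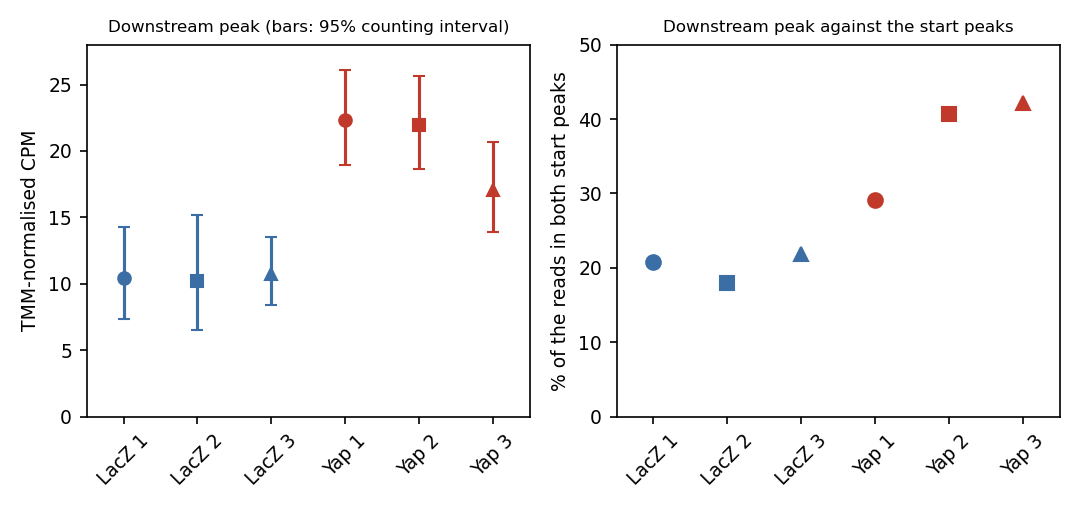
The peak downstream of Myl1 in each sample. The left panel gives TMM-normalised CPM with exact Poisson 95% intervals for counting error, and the right panel its reads as a percentage of those in both Myl1 start peaks. The 3 Yap-shRNA samples (red) lie between 17.04 and 22.3 CPM and the 3 LacZ-shRNA samples (blue) between 10.2 and 10.8 CPM.

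Over its whole length the downstream peak held 2 E-box matches and 0 matches to MEF2, TEAD or CArG. Its GC content was 44.4%, the upper end of a range that began at 42.3% for the 5 peaks of the region, and its longest run of G or of C was 4 bases. The long isoform's start peak held 1 MEF2, 1 TEAD and 4 E-box matches, 1 of these CAGCTG, and the short isoform's start peak held 1 MEF2 and 4 E-box matches.

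Upstream of Myl1 2 further peaks lie in the region, 11863 bp and 19317 bp before the 5′ end of the gene and outside exons. The nearer one (chr1:66957267-66958014) held 12.05, 15.3 and 16.2 CPM in LacZ-shRNA and 14.97, 15.7 and 16.7 CPM in Yap-shRNA. The groups overlapped, with a log2 fold change of 0.11 (SE 0.18). The farther one (chr1:66964721-66965335) held 13.4, 12.3 and 13.7 CPM in LacZ-shRNA and 12.4, 11.4 and 6.78 CPM in Yap-shRNA. Yap-shRNA replicate 3 was the lowest and replicate 1 lay within the control range, and the log2 fold change was -0.37 (SE 0.22). Over their whole length, the nearer peak held 1 TEAD and 7 E-box matches and the farther one 1 TEAD and 5 E-box matches. Each had 1 CAGCTG among its E-boxes and 0 matches to MEF2 or CArG.

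**Figure D4:**
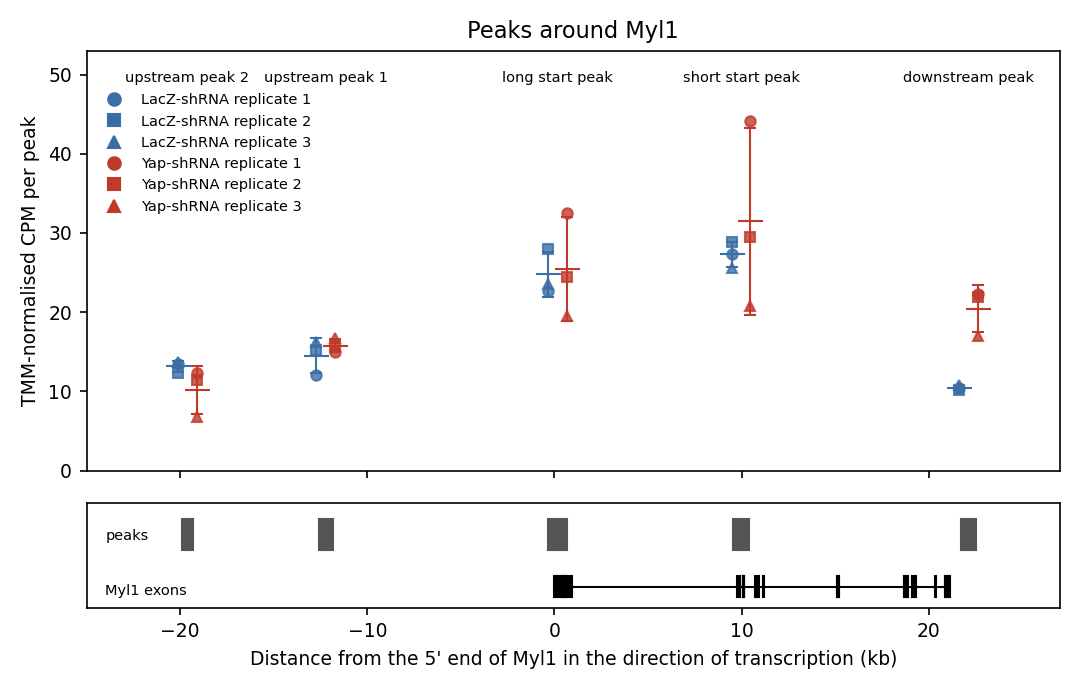
TMM-normalised CPM of the 5 peaks around Myl1 by distance from the 5′ end of the gene in kb, in the direction of transcription. Points are samples, horizontal bars with whiskers are group means ± SD (n = 3), and the lower strip gives the extent of the peaks and the exons. The groups are apart at the downstream peak and overlap at the other 4.

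The other 7 members had 16 peaks within 10 kb of the gene, at 6 of them, since Myl2 had none in the peak table. Of these 0 passed the threshold, 1 had every Yap-shRNA sample above every control and 4 every one below (6.55% and 6.76% of all peaks). Their log2 fold changes ran from -0.46 to 0.23 with a median of -0.075. Of the 16 peaks, 7 belonged to Mylk4, and they differed in direction along the locus. The peak at its start (chr13:32783632-32784448) held 26.8, 23.4 and 27.7 CPM in LacZ-shRNA and 22.2, 22.1 and 19.4 CPM in Yap-shRNA, all lower, with a log2 fold change of -0.31 (SE 0.15). A peak 3360 bp before the nearest start (chr13:32787314-32788121) held 21.6 ± 2.67 CPM in LacZ-shRNA and 15.6 ± 1.69 CPM in Yap-shRNA (SD, n = 3 per group) without overlap, and its log2 fold change was -0.46 (SE 0.17). The exonic peak farther into the gene (chr13:32720049-32722639) had all Yap-shRNA samples higher, with 83.7 ± 2.32 against 75.5 ± 5.30 CPM (SD, n = 3 per group) and a log2 fold change of 0.15 (SE 0.12).

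Mylk2 (ENSMUSG00000027470, chromosome 2, 152911352 to 152923068) had the most accessible window of the members, and yet 0 peaks of the table overlapped that window. A wide peak of 5337 bp ended 2737 bp before its start (chr2:152903279-152908615) and held 192, 231 and 209 CPM in LacZ-shRNA and 185, 188 and 187 CPM in Yap-shRNA. The knockdown samples were all lower, with a log2 fold change of -0.17 (SE 0.14). A peak of 6184 bp at the 3′ end of the gene (chr2:152921794-152927977) held 287, 368 and 319 CPM in LacZ-shRNA and 249, 319 and 368 CPM in Yap-shRNA, and its groups overlapped (log2 fold change -0.056, SE 0.17). An intronic peak of Myl4 (chr11:104567661-104568486) was lower in all Yap-shRNA samples, at 24.0 ± 2.30 against 29.8 ± 1.60 CPM (SD, n = 3 per group), with a log2 fold change of -0.32 (SE 0.14). The peak at the Myl4 start, a gene whose window shares part with that of Cdc27, had a log2 fold change of 0.11 (SE 0.13).

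The wider pathway was read from 22 genes: the other light chains, the other light chain kinases, the light chain phosphatase, calmodulin and the myosin heavy chains. Of the 22 windows, 0 passed the threshold (edgeR quasi-likelihood test, 0 also in DESeq2, which gave no adjusted p for Myl7, Myh1, Myh2, Myh3 and Myh11), 2 had an unadjusted p under 0.05 (Myl7 and the perinatal heavy chain gene Myh8, beside 4.9% of all windows), and 10 had positive and 12 negative fold changes with a median of -0.036. The smallest p-value in the positive direction belonged to Myl7, the atrial regulatory chain, with 21.0 ± 1.85 against 16.6 ± 1.54 CPM (SD, n = 3 per group). For Myl7 the log2 fold change was 0.34 (SE 0.16), with an adjusted p of 0.946 in edgeR. In the negative direction it belonged to Calm3, a calmodulin gene, where the log2 fold change was -0.16 (SE 0.14) and the adjusted p from edgeR 0.951. The heavy chain genes of the fast fibres, Myh1, Myh2 and Myh4, had log2 fold changes of -0.068, 0.017 and -0.12, and Myh7 of slow fibres had 0.073. The 3 Yap-shRNA samples were above the 3 controls in 2 of 22 windows, Myl7 and Mylk, which codes for the kinase of smooth muscle, and below them in 0 of 22, beside 5.31% and 4.79% of all windows.

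The windows whose pattern over the 6 samples was most like that of Myl1 and of Mylpf were found among 13973 windows with a mean count of at least 100. Likeness was the root mean square difference in log2 CPM after each window's own mean was subtracted. Closest to Mylpf were Synpo2l (0.019), Sp1, Usf3, Aven and Zbed4 (0.048), against a median of 0.249 for all windows compared. Closest to Myl1 were Htatsf1 (0.121), Gm12890, Gm38033, Gm27601 and Bhlhe41 (0.146), against a median of 0.319. The nearest windows thus lay farther from Myl1 than from Mylpf on this scale.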

How the data were processed

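ATAC-seq libraries of 3 LacZ-shRNA and 3 Yap-shRNA samples were analysed. Per the study's methods and processing notes, reads were mapped to GRCm38 with BWA 0.7.17, duplicates were removed with SAMtools 1.8, peaks were called with MACS 1.4.2-1, and peaks found in more than 1 sample were counted with featureCounts 1.5.0. The authors deposited whole-number read counts, not normalized, for peaks and for promoter windows, with a mean count of at least 10 per row. Transposase offsets and fragment lengths cannot be examined in counts.

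From these counts, edgeR 4.0.16 in R 4.3.3 fitted each whole table with TMM factors and without covariates, and its quasi-likelihood p-values were adjusted by Benjamini-Hochberg and read at 0.05. Other settings were the likelihood-ratio test, DESeq2 1.42.0, other scaling factors, a mean count of at least 50, a replicate block and leaving out each sample. Windows without overlap and levels per unshared kb were added after the data were seen. Levels per unshared kb divide the count of the whole window by its unshared width. Levels within samples were compared by exact sign-flip tests in Python 3.11.15. The edgeR quasi-likelihood test was tried on simulated counts, and the sign-flip test was checked on short vectors with known answers. Sequences came from the reference genome and RefSeq, both GRCm38, and annotation from GENCODE. The labels tie no sample to single animals beyond the pools, so p-values measure the spread between these pools.

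The members, the gene lists and the tests were chosen with earlier results of these data known. All 8 members and all peaks of the Myl1 region are named. Of the other list, genes past the threshold or else the 1 with the smallest p in each direction are named, and the fast and slow heavy chains, Mylk and the peaks near other members were picked in addition after their values were seen. The 5 most alike windows are named for Myl1 and for Mylpf.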

Additional observations from a re-analysis of the deposited data

How the results depend on the processing

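The alternatives gave 160 fold changes of member windows and Myl1 region peaks. Those of features not called moved by less than the spread between replicates, and those of the downstream peak kept their sign and call. Leaving out 1 of 3 replicates can hardly move a fold change by more than that spread, and the other settings refit the same counts. The small moves are therefore no sign of stability. The downstream peak of Myl1 had log2 fold changes from 0.90 without Yap-shRNA replicate 1 to 1.10 with library size alone. The stretch was chosen from this peak in the same counts, so its calls under these settings are no sign of stability. Fold changes near 0 changed sign in some settings, in the windows of Myl1 and Myl2, both Myl1 start peaks and the nearer upstream peak. That of the Myl1 window was -0.22 without Yap-shRNA replicate 1, and that of Myl2 was -0.036 without LacZ-shRNA replicate 1. Scaling by library size alone raised the median log2 fold change by 0.14 over all peaks and by 0.060 over all windows. Leaving out 1 replicate gave 0 to 1 member windows past the threshold, the 1 being Mylk2 without LacZ-shRNA replicate 1.

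The difference between fast and slow light chain genes was 0.44 per window, 0.83 per unshared kb and 0.70 in the LacZ-shRNA samples alone. Leaving out 1 replicate gave 0.55 to 0.69, each with an exact p of 0.0625, the smallest that 5 samples allow. Levels in peaks could not be compared for it because 0 peaks overlap the windows of Myl2 and Myl3, and leave-one-out and the LacZ-shRNA samples alone gave no count of neighbours that differ.

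Both vectors went to contralateral muscles, so the 2 groups may share animals, and the labels do not say whether equal replicate numbers mark them. The counts did not settle the pairing, and the numbers were not treated as pairs. Same-numbered samples had deviations that correlated by 0.19, -0.12 and 0.092 over windows and by 0.015, -0.093 and -0.14 over peaks, and not every sample correlated best with its own number. With a replicate block, 0 member windows, 0 windows of the wider pathway and 1 peak of the Myl1 region (log2 fold change 0.93) passed the threshold, and the block changed none of these calls. Over the whole tables, calls numbered 33 windows and 378 peaks with the likelihood-ratio test, 20 and 118 with DESeq2 and 13 and 136 at a mean count of at least 50, and leaving out 1 replicate gave 4 to 157 windows and 94 to 447 peaks. The LacZ-shRNA replicates 1 and 2 limit the precision of peaks of low count.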

Other observations

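Mylk2 was among the windows of high level that no peak in the table used here overlaps. Of 39022 windows alone in their region, 31614 had no overlapping peak, and the level per kb of Mylk2 ranked 14 among these and exceeded 99.6% of the 7408 windows with a peak. The highest window without a peak was that of Gm10722 (2372 CPM per kb), followed by AC149090.1 (245), Fau-ps2 (215), Gm11168, CR524822.1 and Gm17535. Others above Mylk2, picked after their values were seen, were Plin4 (71.1 CPM per kb), Atp2a1 (61.0) and Nmrk2 (56.8). Plin4 is a lipid droplet gene, Atp2a1 codes for the calcium pump of fast fibres and Nmrk2 for a kinase of NAD synthesis in muscle. Windows with a peak had a median of 9.13 CPM per kb and windows without one 4.29. The cause was not tested.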
